A study of Homo sapiens with 12 samples.

Results

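The messenger RNA of HCT116 cells lacking ANKRD52 was compared here with that of HCT116 cells lacking AGO2. HCT116 is an established human colorectal carcinoma line, and all cells were harvested 48 hours after seeding with no drug or other agent named. The comparison takes in 6 of the 12 polyA libraries of the study, 3 labelled replicates with the genotype ANKRD52_KO and 3 with AGO2_KO. The other 6 are 3 libraries of the parental line, which serve as the common reference of both knockouts, and 3 of an ANKRD52;CSNK1A1 double knockout. The labels do not say whether a knockout line is a single clone, nor whether replicates were separate cultures, so the p-values reflect the spread among these libraries alone, and that spread may be technical. A property of one clone and an effect of the knocked-out gene cannot be told apart in this design.

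For every gene, the log2 fold change of the AGO2 knockout against parental cells was subtracted from that of the ANKRD52 knockout, so that the parental level drops out. A log2 difference above 0 means more RNA in the ANKRD52 knockout. Members were the 11877 of 12756 listed genes with a mean expression of at least 1 log2 CPM (read counts scaled to library size). That mean covers all 4 groups, the double knockout included. In 157 of the members the mean of both knockouts compared lay under this level, so they entered through the parental cells or the double knockout. Of these, 15 were called, and 5 of them, HAS2, NEDD9, NRG1, GRIK2 and PRDM1, are among the largest differences. A member could also reach the filter only through a compared knockout in which it was high. Among the largest differences, TNFSF18, CLDN2, DRD1 and SNAP25 did so through the ANKRD52 knockout and CACNB4 through the AGO2 knockout. For such genes the filter and the difference are not independent. The deposited values are fold changes per group, so values per library, their overlap and their depth are not given here. Levels in CPM below are implied for each group from the mean expression and the fold changes, and are set side by side only within a gene. Errors are approximate standard errors (SE) rebuilt from each gene's likelihood ratio.

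MicroRNAs guide an Argonaute protein to partly complementary sites in the 3′ UTR of messages, mostly through bases 2 to 8 of the microRNA, the seed. Argonaute then recruits TNRC6 (GW182) proteins, which bring deadenylases and decapping factors to the message. AGO2 is the main Argonaute of most human cells and the one with slicing activity. ANKRD52 is an ankyrin-repeat regulatory subunit of protein phosphatase 6 (PP6), while CSNK1A1 encodes the alpha form of casein kinase 1. The study's title concerns a cycle of Argonaute phosphorylation, so setting both knockouts against each other asks which transcripts separate loss of the Argonaute from loss of the phosphatase subunit.

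The microRNA families whose targets are described below are shown by a mature sequence each, from RefSeq (GRCh38.p14), with the seed in capitals. The seed is what a target must pair with, and it defines the families.
hsa-let-7a-5p: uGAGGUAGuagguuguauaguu
hsa-miR-17-5p: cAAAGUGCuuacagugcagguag
hsa-miR-20a-5p: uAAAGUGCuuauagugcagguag
hsa-miR-19b-3p: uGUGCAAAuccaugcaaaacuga
hsa-miR-200b-3p: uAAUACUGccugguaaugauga
hsa-miR-141-3p: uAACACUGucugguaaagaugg
hsa-miR-16-5p: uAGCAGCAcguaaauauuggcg
hsa-miR-21-5p: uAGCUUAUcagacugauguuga
The miR-17 and miR-20a entries share their seed, while miR-200b and miR-141, both of the miR-200 family, have seeds of their own. MicroRNA levels were not measured in these libraries.

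The knockouts differed in 1120 genes, 9.43% of those tested, at an adjusted p under 0.05. Of these, 656 (5.52%) were higher and 464 (3.91%) lower in the ANKRD52 knockout. Most differences were small: the median size among called genes was 1.4-fold, and 155 genes differed by at least 1 on the log2 scale, 114 of them higher. Over all genes the median difference was -0.01, with quartiles of -0.15 and 0.15, and the median SE was 0.13. The count depends on how the error of the difference is set. Summing both squared errors, which counts the parental spread that drops out of the difference, left 94 genes, and a t distribution with 8 degrees of freedom left 0, with 1955 genes at an unadjusted p under 0.05. All 94 genes were among the 1120, and they included ANKRD52, SPARC, HAS2, SEMA3A, SAT1, CPA4, GDF15, CDKN1A, PLK3, BAX, TNRC6C, MRC2, ARNT2, SYT1 and SDHB.

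**Figure D1:**
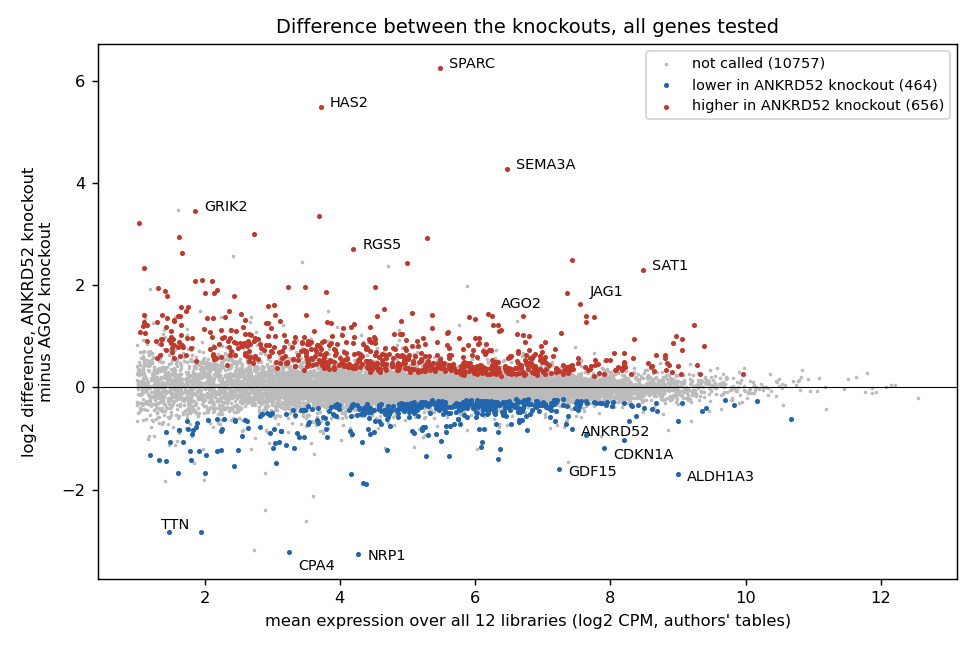
Each point is a tested gene, with its mean expression in log2 CPM on the x axis and its log2 difference (ANKRD52 knockout minus AGO2 knockout) on the y axis. The 656 genes called higher are red and the 464 called lower are blue, and the largest differences, of SPARC at 6.25 and NRP1 at -3.27, lie far outside the grey cloud.

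The knocked-out genes were examined first. AGO2 had an implied level of 82.0 CPM in parental cells, 39.0 in the AGO2 knockout and 103 in the ANKRD52 knockout. It was 2.65-fold higher in the ANKRD52 knockout (log2 difference 1.4, SE 0.36, adjusted p = 0.0031). The run of 40 neighbouring genes that holds AGO2 had a median difference of 0.39, and the part of that run's shift in the AGO2 value was not tested. ANKRD52 stood at 155 CPM in parental cells, 279 in the AGO2 knockout and 159 in the ANKRD52 knockout. It was thus lower in its own knockout than in the AGO2 knockout (log2 difference -0.81, SE 0.14, adjusted p = 1.4e-06), but its RNA in that knockout lay beside the parental level, so RNA abundance does not check the ANKRD52_KO label. CSNK1A1, intact in both groups per the labels, had a log2 difference of -0.05 (SE 0.34, 95% interval -0.70 to 0.61, adjusted p = 0.95).

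The 7 Argonaute and TNRC6 genes had a median difference of 0.29. Of these, 4 were higher in the ANKRD52 knockout and none was lower (57.1% called, beside 9.43% of all genes). Among the 4 is AGO2, itself a knocked-out gene of this comparison, so the others are also given apart. Of the other 6 genes 3 were higher, all of them TNRC6 scaffolds, with a median of 0.25. TNRC6C stood at 66.3 CPM in parental cells, 53.7 in the AGO2 knockout and 88.1 in the ANKRD52 knockout, a log2 difference of 0.71 (SE 0.09, adjusted p = 8.4e-11). The AGO2 knockout lay below the parental level and the ANKRD52 knockout above it. TNRC6B differed by 0.33 (SE 0.08, adjusted p = 0.0022) and TNRC6A by 0.29 (SE 0.10, adjusted p = 0.042), and both knockouts lay above the parental level for either gene. For TNRC6B in the AGO2 knockout that step was 0.10 and was not called (adjusted p = 0.48 in the authors' deposited table). The other Argonautes did not pass: AGO1 had a difference of 0.15 (95% interval -0.02 to 0.32), AGO3 of 0.03 (-0.18 to 0.24) and AGO4 of 0.21 (0.01 to 0.41, adjusted p = 0.20).

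No microRNA processing gene passed the test, of 11 tested, beside 9.43% called of all genes. All 11 differences were above 0, from 0.01 for the nuclear RNase DROSHA to 0.27 for the Dicer partner PRKRA. DICER1, which cuts precursors into mature microRNAs, stood at 99.5 CPM in parental cells, 170 in the AGO2 knockout and 188 in the ANKRD52 knockout. Both knockouts lay above the parental level, and their difference from each other was 0.14 (SE 0.09, 95% interval -0.04 to 0.32, adjusted p = 0.35). DGCR8, the partner of DROSHA, and the export factor XPO5 had differences of 0.13 (SE 0.12) and 0.02 (SE 0.10).

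Among the 7 subunits of PP6, ANKRD52 was lower and its paralog ANKRD44 higher in the ANKRD52 knockout. ANKRD44 stood at 5.47 CPM in parental cells, 6.19 in the AGO2 knockout and 9.34 in the ANKRD52 knockout (log2 difference 0.59, SE 0.20, adjusted p = 0.039). The third ankyrin subunit, ANKRD28, had a difference of -0.17 (SE 0.09, adjusted p = 0.22). The catalytic subunit PPP6C stood at 111 and 106 CPM in the AGO2 and ANKRD52 knockouts (difference -0.06, 95% interval -0.22 to 0.10), and PPP6R1, PPP6R2 and PPP6R3 lay between -0.04 and 0.01. None of the 6 casein kinase 1 genes passed, CSNK1A1 included, with a median difference of -0.02. Of 26 deadenylation and decapping genes, 2 were lower and none higher (7.69% called, beside 9.43% of all genes), with a median of -0.01. They were TOB1, an adaptor that binds the CCR4-NOT deadenylase, at 141 CPM in the AGO2 knockout and 94.6 in the ANKRD52 knockout (difference -0.57, SE 0.13, adjusted p = 0.00066), and the related BTG2 (-0.43, SE 0.14, adjusted p = 0.036). BTG2 also stands in the lists of p53 and miR-21 targets.

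**Figure D2:**
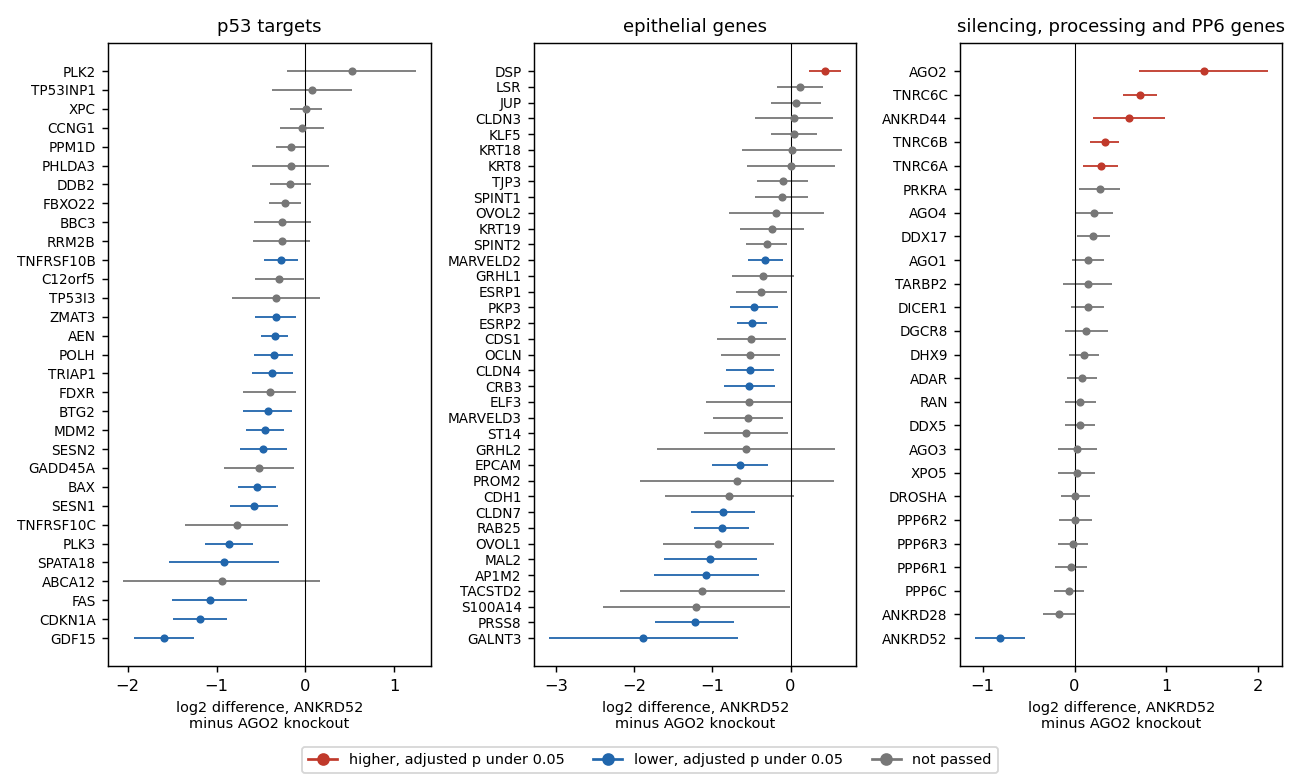
Points are log2 differences (ANKRD52 knockout minus AGO2 knockout) of the p53 targets, the epithelial genes and the silencing, processing and PP6 genes, with 95% intervals as bars, in red or blue where the adjusted p was under 0.05. Of 31 p53 targets 28 lie below 0, as do 30 of 37 epithelial genes, while the 6 Argonaute and TNRC6 genes other than AGO2 itself lie above it.

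Known microRNA targets were split between both directions. Among 19 let-7 targets 2 were higher and 2 lower in the ANKRD52 knockout (21.1% called, beside 9.43% of all genes), with a median of 0.06. HMGA2, the chromatin protein that is the classical let-7 target, stood at 243 CPM in parental cells, 558 in the AGO2 knockout and 830 in the ANKRD52 knockout (difference 0.57, SE 0.16, adjusted p = 0.0094). Its relative HMGA1 stood at 1857, 1916 and 1242 CPM (difference -0.63, SE 0.14, adjusted p = 0.00049), so the pair moved apart. The type I TGF-beta receptor TGFBR1 was higher by 0.38 (SE 0.11, adjusted p = 0.010) and LRIG3 was lower (difference -0.60, SE 0.18, adjusted p = 0.019). MYC, with a difference of -0.18, did not pass.

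Among 22 targets of the miR-17 family 1 was higher and 4 were lower (22.7% called, beside 9.43% of all genes), with a median of -0.04. The largest was CDKN1A, the p21 inhibitor of cyclin-dependent kinases, which stood at 143 CPM in parental cells, 359 in the AGO2 knockout and 158 in the ANKRD52 knockout. The AGO2 knockout alone lay far from the parental level, and the ANKRD52 knockout was 2.28-fold below it (difference -1.19, SE 0.16, adjusted p = 5.2e-11). ANKRD52, given above and itself a knocked-out gene of this comparison, is on this list and counted among the 4. BTG3 (-0.32) and VEGFA (-0.37) were also lower. PKD2, which encodes polycystin-2, was higher, at 29 CPM in the AGO2 knockout and 44.6 in the ANKRD52 knockout (difference 0.62, SE 0.15, adjusted p = 0.0018).

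Among 22 targets of the miR-200 family 5 were higher and none was lower (22.7% called, beside 9.43% of all genes). The median was 0.07 and the mean 0.24. The Notch ligand JAG1 stood at 99.1 CPM in parental cells, 97.9 in the AGO2 knockout and 306 in the ANKRD52 knockout (3.12-fold, SE 0.42 on the log2 scale, adjusted p = 0.0028). TCF7L1, a Wnt pathway repressor, differed by 0.52 (SE 0.13, adjusted p = 0.0027), the splicing regulator QKI by 0.38 (SE 0.12, adjusted p = 0.025), FN1 by 0.83 and the actin-severing CFL2 by 0.27. A seed match of miR-200b or miR-141 was found in the 3′ UTRs used here of QKI, FN1 and CFL2, and in those of JAG1 and TCF7L1 neither was found. The family's best known target, ZEB1, stood at 5.08 CPM in parental cells, 15.2 in the AGO2 knockout and 34.8 in the ANKRD52 knockout, and its difference of 1.19 had an SE of 0.54 and did not pass (adjusted p = 0.15).

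Of 14 miR-19 targets only SOCS1 passed (7.14% called, beside 9.43% of all genes). This cytokine signalling inhibitor stood at 1.65 CPM in the AGO2 knockout and 3.45 in the ANKRD52 knockout (difference 1.07, SE 0.34, adjusted p = 0.026). Among 16 miR-15/16 targets 2 were higher and 1 lower (18.75% called), and among 17 miR-21 targets 2 were higher and 2 lower (23.5% called). RECK, an inhibitor of matrix metalloproteinases on both lists, stood at 4.16 CPM in the AGO2 knockout and 9.40 in the ANKRD52 knockout (difference 1.18, SE 0.26, adjusted p = 0.00038). The apoptosis inhibitor BCL2 was higher by 0.63 and the SMAD repressor SKI by 0.27, while the transcription factor NFIB differed by -0.63.

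Seed matches of targets that passed are given as windows of 25 bases in the 3′ UTR of the GENCODE 29 principal transcript (GRCh38), read along the message, with the match in capitals. They show that a let-7 match was carried by a gene that was higher and by one that was lower, and that the lower genes CDKN1A and ANKRD52 carry the same miR-17 match.
HMGA2, let-7, chr12:65963296-65963320, plus strand: gcgccaacgttcgatttCTACCTCa
HMGA1, let-7, chr6:34245827-34245851, plus strand: tttcctctgttcacaaaCTACCTCt
CDKN1A, miR-17, chr6:36686251-36686275, plus strand: tgagaagtaaacagatgGCACTTTg
ANKRD52, miR-17, chr12:56243058-56243082, minus strand: aagtctaaacatttaggGCACTTTa
SOCS1, miR-19, chr16:11254530-11254554, minus strand: tacatatacccagtatcTTTGCACa
QKI, miR-200b, chr6:163572998-163573022, plus strand: gttgttaaaaacaatacCAGTATTt
RECK, miR-21, chr9:36124166-36124190, plus strand: gtgtttcacagtttgaaATAAGCTa
HMGA2 holds 4 let-7 matches in 3003 bases of 3′ UTR and HMGA1 holds 1 in 1347, ANKRD52 holds 3 miR-17 matches and CDKN1A 2.

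Seed matches were then counted over all genes with a usable 3′ UTR, 11262 of those tested, on the message strand only. The let-7 match CTACCTC was found in 10.5% of these UTRs, the miR-17 match GCACTTT in 23.9%, the miR-19 match TTTGCAC in 15%, the miR-200b match CAGTATT in 18.5%, the miR-141 match CAGTGTT in 20.2%, the miR-15/16 match TGCTGCT in 23.9% and the miR-21 match ATAAGCT in 9.18%. The miR-19 match ends in the letters with which the miR-17 match begins, so a stretch can hold both. Genes with a match had a median difference above genes without one by 0.01 for miR-17 and by 0.03 for each of the other 6. The match ACACTCC of miR-122, a microRNA of liver, and GGACCAA of miR-133a, a microRNA of muscle, gave 0.03 and 0.05. UTR length moved with the same values: the median difference was -0.04 in the 3754 genes with the shortest 3′ UTRs, -0.01 in the middle class and 0.02 in the longest, and the share called higher was 3.44%, 5.59% and 7.91%. Within the longest class, genes with a match lay from 0.03 below (miR-17) to 0.02 above (miR-15/16) those without for the 7 families, with let-7 at -0.00, and 0.02 and 0.04 above for miR-122 and miR-133a. In the middle class the let-7 value was 0.05, and those of miR-122 and miR-133a were 0.01 and 0.03. A match is a description of the letters and not of a functional site.

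The epithelial genes that passed were lower in the ANKRD52 knockout, with 1 exception. Of 37 epithelial genes, 12 were lower and 1 higher (35.1% called, beside 9.43% of all genes), with a median difference of -0.51. Both knockouts' medians lay below the parental level, at -0.28 for the AGO2 and -0.80 for the ANKRD52 knockout in the authors' deposited tables. RAB25, a small GTPase of apical recycling, stood at 57.8 CPM in parental cells, 49.9 in the AGO2 knockout and 27.1 in the ANKRD52 knockout (difference -0.88, SE 0.18, adjusted p = 0.0001). The membrane protease PRSS8 stood at 33.2, 29.6 and 12.6 CPM (-1.23, SE 0.26, adjusted p = 0.00021). The splicing factor ESRP2 differed by -0.49 (SE 0.10, adjusted p = 0.0001) and lay above parental in the AGO2 knockout and below it in the ANKRD52 knockout. Neither step from parental was called (adjusted p = 0.093 and 0.11 in the authors' deposited tables). The tight junction claudins CLDN7 (-0.87) and CLDN4 (-0.52), the adhesion molecule EPCAM (-0.65), the polarity protein CRB3 (-0.53), the trafficking genes MAL2 (-1.03) and AP1M2 (-1.08), the plakophilin PKP3 (-0.47), MARVELD2 (-0.32) and the glycosyltransferase GALNT3 (-1.89) were lower as well. Desmoplakin, DSP, was the exception, at 366 CPM in the AGO2 knockout and 497 in the ANKRD52 knockout (0.44, SE 0.10, adjusted p = 0.0013). E-cadherin, CDH1, stood at 114, 78.3 and 45.4 CPM in parental cells, the AGO2 knockout and the ANKRD52 knockout, and its difference of -0.78 had an SE of 0.42 (adjusted p = 0.24). The keratins KRT8 and KRT18 had differences of 0.00 (SE 0.29) and 0.02 (SE 0.33).

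Mesenchymal genes pointed the other way, with 5 of 13 higher, none lower (38.5% called, beside 9.43% of all genes), and a median of 0.43. HAS2 is among these 5 and entered only through groups outside the comparison. Requiring 1 log2 CPM in the mean of both knockouts left the list's median at 0.43. SPARC, a secreted collagen-binding protein, stood at 0.323 CPM in parental cells, 1.11 in the AGO2 knockout and 84.7 in the ANKRD52 knockout, the largest difference among the called genes (log2 difference 6.25, SE 1.0, adjusted p = 2.1e-07). The hyaluronan synthase HAS2 stood at 1.46 CPM in the ANKRD52 knockout and at 0.0326 in the AGO2 knockout, under the level of 3 reads over a group, so no fold is given (adjusted p = 3.4e-07). The intermediate filament gene VIM stood at 1.81 CPM in parental cells, 10.7 in the AGO2 knockout and 39.2 in the ANKRD52 knockout (difference 1.87, SE 0.62, adjusted p = 0.034). Fibronectin, FN1, stood at 33.4, 33.6 and 59.8 CPM (0.83, SE 0.27, adjusted p = 0.030), and the collagen COL6A1 differed by 0.43 (SE 0.14, adjusted p = 0.035). The smooth muscle actin ACTA2, with a difference of -0.46, did not pass.

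TGF-beta and BMP signalling genes had 6 of 27 members higher and none lower (22.2% called, beside 9.43% of all genes), with a median of 0.20. The members were the receptors TGFBR1, ACVR2B (0.59, SE 0.18) and BMPR2 (0.35, SE 0.11), the response genes ID3 (0.68, SE 0.20) and BAMBI (1.23, SE 0.41), and SKI. BAMBI, a decoy receptor, stood at 12.9 CPM in parental cells, 12.5 in the AGO2 knockout and 29.3 in the ANKRD52 knockout. The ligands did not pass, TGFB1 with a difference of 0.20 and TGFB2 with 1.49 at an SE of 1.05, and the SMAD3 and SMAD4 differences were -0.03 and 0.03.

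Matrix and adhesion genes were called in both directions, 4 higher and 6 lower of 36 (27.8% called, beside 9.43% of all genes). The laminin chain LAMA3 stood at 11.6 CPM in the AGO2 knockout and 4.18 in the ANKRD52 knockout (-1.47, SE 0.34, adjusted p = 0.00087), and LAMB3 differed by -1.04 (SE 0.28). COL17A1, a hemidesmosomal collagen of epithelia, stood at 2.49 CPM in parental cells, 11 in the AGO2 knockout and 3.39 in the ANKRD52 knockout (-1.70, SE 0.42, adjusted p = 0.0019). LAMA4 (-1.41) and the integrin subunit ITGB1 (-0.46) were lower too. The collagen VI chains COL6A1 and COL6A2 (0.45, SE 0.11), LAMA1 (1.35, SE 0.35) and the fibronectin receptor subunit ITGA5 (0.28, SE 0.08) were higher.

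Among 24 semaphorins, neuropilins and plexins 5 were higher and 2 lower (29.2% called, beside 9.43% of all genes). The guidance ligand SEMA3A stood at 10.9 CPM in parental cells, 8.68 in the AGO2 knockout and 169 in the ANKRD52 knockout, 19.5-fold higher (log2 difference 4.28, SE 0.62, adjusted p = 5.6e-09). Its receptor NRP1 ran opposite, at 4.77 CPM in parental cells, 62.0 in the AGO2 knockout and 6.43 in the ANKRD52 knockout (log2 difference -3.27, SE 0.91, adjusted p = 0.0081). Ligand and receptor thus each stood apart from parental cells in a different knockout. SEMA6C (0.83), SEMA6B (0.47), SEMA4C (0.42) and the plexin PLXND1 (0.39) were higher and SEMA7A (-0.82) lower. NRP2 had a difference of -0.84 with an SE of 0.38 and did not pass.

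**Figure D3:**
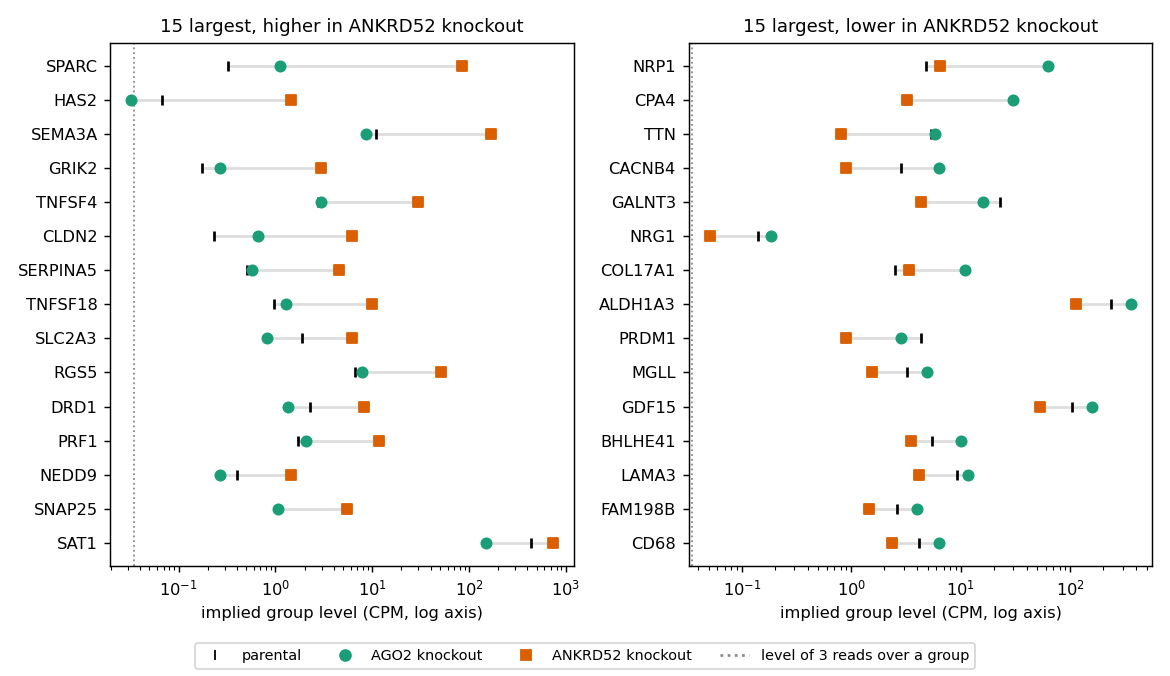
Implied group levels in CPM (log axis) in parental cells, the AGO2 knockout and the ANKRD52 knockout for the 15 largest differences each way, with a dotted line at the level of 3 reads over a group. SEMA3A reaches 169 CPM in the ANKRD52 knockout against 8.68 in the AGO2 knockout, while NRP1 reaches 62.0 in the AGO2 knockout against 6.43.

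Targets of p53, the stress-activated transcription factor that HCT116 cells carry in wild-type form, were lower in the ANKRD52 knockout wherever they passed. Of 31 tested, 15 were lower and none higher (48.4% called, beside 9.43% of all genes), with a median difference of -0.36. Against parental cells the list's median was 0.44 in the AGO2 knockout and -0.08 in the ANKRD52 knockout in the authors' deposited tables. GDF15, a secreted stress cytokine, stood at 104 CPM in parental cells, 159 in the AGO2 knockout and 52.7 in the ANKRD52 knockout (difference -1.60, SE 0.17, adjusted p = 2e-16). CDKN1A, given above, was next by p. The death receptor FAS stood at 15.4 CPM in parental cells, 28.7 in the AGO2 knockout and 13.6 in the ANKRD52 knockout (-1.08, SE 0.21, adjusted p = 5.9e-05). The kinase PLK3 stood at 21.1, 31.0 and 17.0 CPM (-0.86, SE 0.14, adjusted p = 1.8e-07). The pore-forming apoptosis protein BAX stood at 52.0, 60.4 and 41.4 CPM (-0.55, SE 0.11, adjusted p = 4.7e-05). MDM2, the ubiquitin ligase that holds p53 in check, stood at 255, 378 and 275 CPM (-0.46, SE 0.11, adjusted p = 0.0014). The remaining called members SESN1, SESN2, TRIAP1, POLH, BTG2, SPATA18, ZMAT3, TNFRSF10B and AEN ranged from -0.92 to -0.27. The p53 targets PLK2 (0.52), XPC (0.01) and TP53INP1 (0.08) lay above 0 and did not pass.

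Stress genes of the unfolded protein and amino acid response had 5 of 28 members lower and none higher. The median was -0.20, and 17.9% were called, beside 9.43% of all genes. The transcription factors DDIT3 (CHOP) and ATF3 differed by -0.90 (SE 0.23, adjusted p = 0.0034) and -0.75 (SE 0.20, adjusted p = 0.0066), the glutathione-degrading CHAC1 by -1.18 (SE 0.31, adjusted p = 0.0049), SESN2 by -0.47 and the serine synthesis enzyme PSAT1 by -0.44. ATF4, which drives several of these genes, had a difference of -0.04, and the chaperone HSPA5 of -0.11. Among 20 AP-1 and immediate early genes 3 were lower and none higher (15% called). They were FOSL1 at 221 and 135 CPM in the AGO2 and ANKRD52 knockouts (-0.72, SE 0.17, adjusted p = 0.00089), JUNB (-0.59, SE 0.14) and ATF3. The ERK feedback list (16.7% called) held FOSL1 as its lower member and 3 higher ones. Among them was the ERK phosphatase DUSP6 at 320 CPM in parental cells, 260 in the AGO2 knockout and 522 in the ANKRD52 knockout (1.0, SE 0.27, adjusted p = 0.0057).

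Of 27 interferon-stimulated genes 2 were higher and 1 lower (11.1% called, beside 9.43% of all genes), and the median was -0.01. Both knockouts had a median of 0.44 against the parental line they share, in the authors' deposited tables. IRF7 (0.99, SE 0.28, adjusted p = 0.0083) and ISG20 (0.61, SE 0.20) were higher and HERC6 (-0.54, SE 0.18) lower. The RNA sensor IFIH1 stood at 14.8 and 9.72 CPM in the AGO2 and ANKRD52 knockouts, a difference of -0.61 that fell just short (SE 0.21, adjusted p = 0.051). None of 9 HLA class I genes passed, nor did any of 8 intestinal differentiation genes, whose median was -0.23. Of 15 NF-kB response genes BIRC3 (-0.84) and CXCL16 (-0.33) were lower (13.3% called).

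The Wnt feedback gene AXIN2 stood at 51.8 CPM in parental cells, 58.0 in the AGO2 knockout and 150 in the ANKRD52 knockout (difference 1.37, SE 0.33, adjusted p = 0.0015). With SOX9 (0.58, SE 0.20, adjusted p = 0.036) it made up the 2 called of 15 Wnt/beta-catenin targets (13.3%, beside 9.43% of all genes). The Wnt inhibitor DKK1, at 290 and 105 CPM in the AGO2 and ANKRD52 knockouts, did not pass (-1.47, SE 0.54, adjusted p = 0.064). Of 20 YAP/TEAD targets (20% called) FSTL1 (0.84), TEAD1 (0.47) and ASAP1 (0.53) were higher. The coagulation initiator F3, at 97.0 and 38 CPM in the AGO2 and ANKRD52 knockouts, was lower (-1.35, SE 0.41, adjusted p = 0.019). ASAP1 lies in the same run of genes as AGO2, with its median of 0.39.

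Growth and metabolic lists ranged from none called to a share above the 9.43% over all genes. None of 73 cytosolic ribosomal protein genes passed, with a median of -0.06. Of 37 replication genes POLA1 (0.25) passed (2.7% called), and of 40 mitosis genes ESPL1 (0.38) and CENPF (0.35) did (5% called). Of 26 G1 genes CCNE2 (0.55), E2F3 (0.38) and the lower CDKN1A passed (11.5% called). Oxidative phosphorylation genes leaned lower, 42 of 46 below 0 with a median of -0.18, but the share called was 8.7%, under that over all genes. The 4 that passed were the succinate dehydrogenase subunit SDHB at 137 and 101 CPM in the AGO2 and ANKRD52 knockouts (-0.44, SE 0.08, adjusted p = 1.8e-06), UQCRC2 (-0.31), COX7B (-0.37) and NDUFB3 (-0.30). Of 33 hypoxia and glycolysis genes 6 were called (18.2%): 4 were lower, hexokinase HK2 (-0.68, SE 0.14, adjusted p = 0.00013) among them, and 2 glucose transporters were higher, SLC2A1 (0.80, SE 0.27) and SLC2A3 (2.92, SE 0.50). The near-identical SLC2A14 may share reads with SLC2A3, whose value is therefore uncertain. Of 33 cholesterol and lipid synthesis genes SQLE (0.73) and LSS (0.23) passed (6.06% called), with a list median of 0.00. SQLE lies in the run of genes that holds AGO2.

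**Figure D4:**
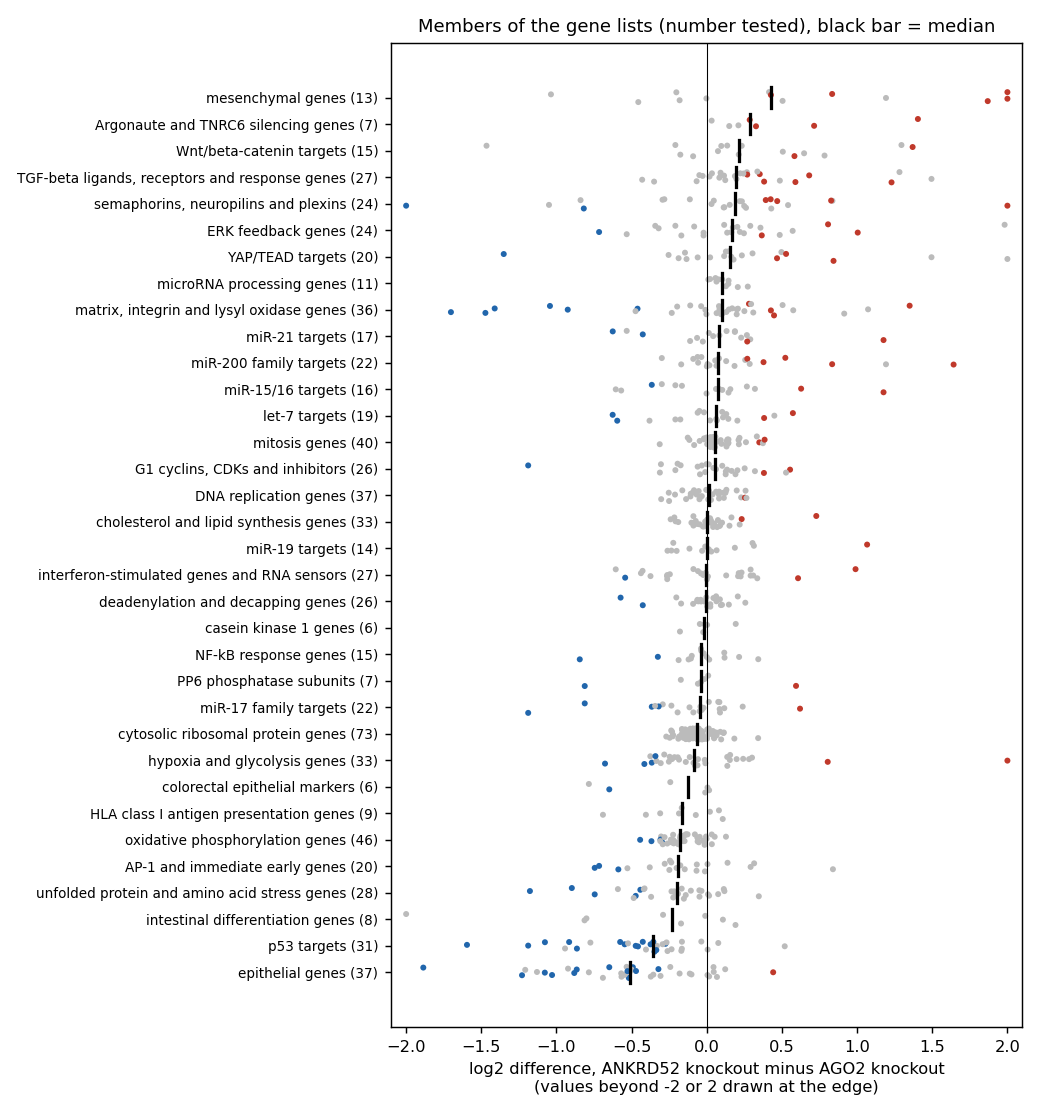
Each point is a tested list member at its log2 difference (ANKRD52 knockout minus AGO2 knockout), red or blue where called higher or lower, with a black bar at the list's median, for lists with at least 5 tested members. Epithelial genes and p53 targets have the lowest medians, -0.51 and -0.36, and mesenchymal genes the highest, 0.43.

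Beyond the lists, the largest differences included several signalling genes. TNFSF18, CLDN2, DRD1 and SNAP25 below reached the expression filter only through the ANKRD52 knockout, where they were high. The polyamine acetyltransferase SAT1, an abundant transcript, stood at 439 CPM in parental cells, 149 in the AGO2 knockout and 738 in the ANKRD52 knockout (log2 difference 2.31, SE 0.34, adjusted p = 1.8e-08). The groups lay on either side of the parental level, but the rise in the ANKRD52 knockout was not called (adjusted p = 0.13 in the authors' deposited table). The TNF family ligands TNFSF4, at 2.93 and 29.8 CPM in the AGO2 and ANKRD52 knockouts (3.35, SE 0.94), and TNFSF18, at 1.30 and 9.99 CPM (2.94, SE 0.66), both lie on chromosome 1. The G protein regulator RGS5 stood at 7.76 and 51.0 CPM (2.72, SE 0.55). The glutamate receptor subunit GRIK2 (3.46), the claudin CLDN2 (3.22), the serpin SERPINA5 (2.99), the dopamine receptor DRD1 (2.63), perforin PRF1 (2.50), the scaffold NEDD9 (2.43) and the synaptic SNAP25 (2.34) completed the 15 largest, each under 12 CPM in both knockouts.

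On the lower side, the carboxypeptidase CPA4 stood at 3.12 CPM in parental cells, 30.2 in the AGO2 knockout and 3.25 in the ANKRD52 knockout (log2 difference -3.21, SE 0.54, adjusted p = 6.8e-07). The retinal-oxidizing enzyme ALDH1A3 stood at 236 CPM in parental cells, 361 in the AGO2 knockout and 112 in the ANKRD52 knockout (-1.69, SE 0.53, adjusted p = 0.024). The giant muscle protein gene TTN stood at 5.32, 5.76 and 0.805 CPM (-2.84, SE 0.63), with the AGO2 knockout beside the parental level. The calcium channel subunit CACNB4 (-2.82), the transcriptional repressor PRDM1 (-1.68), the lipase MGLL (-1.67), the clock repressor BHLHE41 (-1.53), FAM198B (-1.45) and the macrophage-associated lysosomal CD68 (-1.41) were also among the 15. NRG1 (-1.87), at 0.186 and 0.0509 CPM, was close to the level of a few reads and did not pass with a negative binomial error (adjusted p = 0.073).

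Against parental cells, the authors called 6.28% of the tested genes in the AGO2 knockout (3.53% higher, 2.75% lower) and 14% in the ANKRD52 knockout (7.81% higher, 6.19% lower) at an adjusted p under 0.05. In 5 of the genes that differed between the knockouts they called both, in opposite directions. In the authors' deposited tables, the collagen receptor MRC2 was at -0.82 (adjusted p = 0.026) in the AGO2 knockout and at 1.14 (adjusted p = 0.0002) in the ANKRD52 knockout, at 10.2 and 39.8 CPM. The bHLH transcription factor ARNT2 was at -0.48 and 0.70, the synaptic calcium sensor SYT1 at -0.38 and 0.51 and TNRC6C at -0.30 and 0.41 in the authors' deposited tables. GDF15 was the 1 gene of the reverse pattern, at 0.61 in the AGO2 knockout and -0.99 in the ANKRD52 knockout in the authors' deposited tables. The comparisons share the parental libraries. The log2 difference between the knockouts themselves was 1.96 (SE 0.25) for MRC2, 1.18 (SE 0.16) for ARNT2 and 0.89 (SE 0.11) for SYT1.

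Neighbouring genes shifted together in places. Over 294 runs of 40 neighbouring genes the medians had an SD of 0.08 and ranged from -0.26 to 0.39, the highest being the run on chromosome 8 that holds AGO2. From TRAPPC9 to the end of chromosome 8, 17 of 74 genes were higher and none lower (23% called, beside 9.43% of all genes). The median difference there was 0.37. Against parental the median was -0.54 in the AGO2 knockout and -0.15 in the ANKRD52 knockout in the authors' deposited tables. On chromosome 8 before TRAPPC9, 31 of 337 genes were higher and 10 lower (12.2% called), with a median difference of 0.08. On chromosome 7 the first 5 runs had medians from 0.18 to 0.26 and the last 9 from -0.26 to -0.13. The AGO2 knockout carried these shifts too, with run medians from -0.34 to 0.28 in the authors' deposited table, while the ANKRD52 knockout stayed between -0.06 and 0.07. The part of these shifts in the values of single genes was not tested. SEMA3A and CPA4 lie on chromosome 7 in runs with medians of -0.13 and -0.20, and their own differences were 4.28 and -3.21. Without chromosome 7 and distal chromosome 8, 626 genes were higher and 445 lower.

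**Figure D5:**
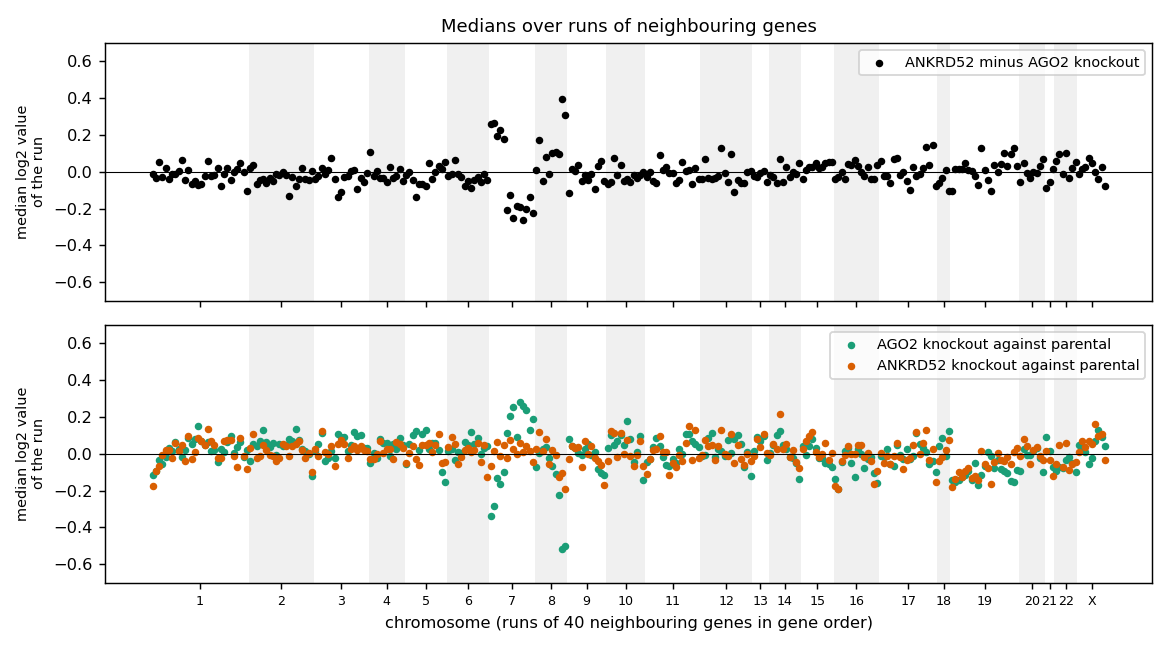
Points are medians over runs of 40 neighbouring genes, in gene order by chromosome on the x axis, of the log2 difference between the knockouts (upper panel) and of each knockout against parental in log2 units (lower panel). Runs on chromosome 7 and at the end of chromosome 8 stand apart, up to 0.39 in the upper panel, and in the lower panel they do so for the AGO2 knockout.

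The cell type labels were checked against markers. Of 10 colorectal epithelial markers 6 were tested, and KRT8, KRT18, KRT19, EPCAM, CDH1 and CDX2 were expressed in both knockouts, EPCAM being lower in the ANKRD52 knockout (-0.65, SE 0.18, adjusted p = 0.010). VIL1, GPA33, CDH17 and LGALS4 were not among the genes tested. Of 20 markers of immune, endothelial, fibroblast and other cells, 3 were tested: COL1A1 at 12.4 CPM in both knockouts, LYZ at 0.252 and 0.279, and CD68, which was called. Their summed level was 19.0 CPM in the AGO2 knockout and 15 in the ANKRD52 knockout.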

How the data were processed

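Stranded polyA libraries of 4 groups, 3 each, were sequenced with a kit of 75 cycles, per the labels' protocols. Named without a role in the submitters' processing notes were edgeR 3.8.6, featureCounts 1.4.6, TopHat2 2.0.12 and hg19. The authors deposited edgeR tables with a log2 fold change against parental, a mean log2 CPM, a likelihood ratio score, a p-value and its adjusted p-value per gene, per the file headers. Depth per library is unknown.

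The SE of each log2 fold change was its size over the root of the likelihood ratio. The variance of a difference was the mean of both squared SEs, tested two-sided against a normal distribution with Benjamini-Hochberg adjustment over 11877 genes (1 gene had no SE). Group levels assume 4 equal groups and a prior count of 0.125, which puts 3 reads over a group at 0.0349 CPM. Below it no fold is given, which was decided once the values had been seen. Tested on counts simulated for 11877 genes, 54% of genes changed by 0.5 and 90% of those changed by 1 were recovered, and 5.16% of unchanged genes had an unadjusted p under 0.05. The simulation took dispersions as known. It also gave all groups the same level, apart from the changed genes in the ANKRD52 knockout. It therefore cannot show how the error holds where the groups differ widely in level or the dispersion is uncertain.

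The members, the 35 gene lists and the border at TRAPPC9 were chosen with earlier results of these data known. Lists were described by counts and medians, with no test. Named were AGO2, ANKRD52 and CSNK1A1, the 15 largest differences each way among called genes, up to 4 members of smallest p per list, all members of the Argonaute and TNRC6, processing and PP6 lists, and genes called in opposite directions in both tables. Other genes are named where a list's called members are counted or as a known member that did not pass, chosen after their values were seen. Gene order came from RefSeq (GRCh38.p14), with 11543 of the listed genes matched by symbol, 956 by synonym and 257 unmatched. The 3′ UTRs, of at least 50 bases, came from GENCODE 29 (GRCh38). Neither is on the authors' build. Alternatives were other thresholds, variances, filters and centring. Work used Python 3.11.15, numpy 2.4.6, pandas 2.3.3, scipy 1.17.1 and matplotlib 3.10.9.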

Additional observations from a re-analysis of the deposited data

How the results depend on the processing

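The 1120 genes called (656 higher, 464 lower in the ANKRD52 knockout) fell to 525 (343 and 182) at an adjusted p under 0.01, to 94 (70 and 24) with the variance as the sum of both squared errors, and to 0 (0 and 0) with a t distribution with 8 degrees of freedom, where the smallest adjusted p was 0.0987. The larger of both errors, the median error over 3 tables, a negative binomial variance, other expression filters, subtraction of the median difference and leaving out chromosome 7 and distal chromosome 8 gave between 938 and 1189. Requiring 1 log2 CPM in the mean of both knockouts, chosen after seeing the data, left 11720 genes and 1105 calls (645 and 460), all among the 1120, and gave a median of -0.71 for markers of other cell types (-0.00 before), where 1 of the 3 genes dropped out. Of 105 named genes that passed, 19 still did with the summed variance. No named gene reversed under these 11 alternatives, but that outcome was set in advance. They left each difference unchanged, apart from the subtraction of a median of -0.01, and the smallest called difference was 0.23 in size. Means in place of medians gave 0.45 for the Argonaute and TNRC6 genes, 0.24 for miR-200 family targets, 1.16 for mesenchymal genes, -0.62 for intestinal differentiation genes (median -0.23) and -0.42 for markers of other cell types (median -0.00). No paired analysis was possible because the tables hold fold changes per group and no values per replicate, and for the same reason leaving out single replicates was not run. Genes between 1 and 3 log2 CPM had a median error of 0.22, against 0.10 for those above 6, so small differences of weakly expressed genes were less detectable.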

Other observations

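The log2 differences used no fold change of the ANKRD52;CSNK1A1 double knockout. Whether its libraries entered the dispersions behind the authors' likelihood ratios, and so the main errors, is not stated. The double knockout entered the mean expression filter and the implied CPM levels of every group. It also entered the alternatives with errors from 3 tables and with a negative binomial variance, and the dispersions of the simulation. Its implied levels of the genes that separated both single knockouts fell on either side. SPARC stood at 92.9 CPM and SEMA3A at 165 CPM in the double knockout, near their levels of 84.7 and 169 CPM in the ANKRD52 knockout. VIM stood at 3.87 CPM there against 39.2 in the ANKRD52 knockout, RGS5 at 8.17 against 51.0 and CLDN2 at 1.04 against 6.24, closer to the parental levels of 1.81, 6.61 and 0.234. NRP1 stood at 4.12 CPM and CPA4 at 1.53 CPM, beside 4.77 and 3.12 in parental cells. Of the p53 targets that were lower in the ANKRD52 than in the AGO2 knockout, CDKN1A stood at 299 CPM and GDF15 at 288 CPM in the double knockout, against 158 and 52.7 in the ANKRD52 knockout. Among epithelial genes RAB25 stood at 54.5 CPM and PRSS8 at 27.9 CPM, against 27.1 and 12.6. These genes were chosen after their values were seen, and no test was made of these differences.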
